A study of Mus musculus with 18 samples.

Results

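Genes of the translation initiation and elongation factors were described in RN2, a leukemia cell line of the mouse that models acute myeloid leukemia with MLL-AF9 and NrasG12D. The members are the protein-coding genes whose mouse symbol starts with Eif or Eef and a digit, leaving out the Eif4ebp genes and pseudogenes. This gave 65 of the 56748 genes in the count table, of which 52 are Eif genes, called initiation members here, and 13 are Eef genes, called elongation members. The symbol rule also takes in enzymes that act on the factors, such as the eIF2 kinases and the methyltransferases of eEF1A and eEF2. It sets the class by symbol alone, so Eif5a, whose protein eases elongation, counts as an initiation member.

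The study asked about the toxicity of base editors, proteins that join a nicking Cas9 to a DNA deaminase, and about base editing under the control of a small molecule. RN2 cells were transduced with lentiviral constructs and sorted on day 5, and polyadenylated RNA was sequenced in 18 libraries, 3 in each of 6 groups. The groups were seBE cells under 1 nM rapamycin, seBE cells under vehicle, intact BE cells under 1 nM rapamycin, intact BE cells under vehicle, cells with an intact BE whose evoA1 deaminase carries a catalytic mutation (the catalytic mutant), and cells with the Cas9 nickase alone (nCas9). Rapamycin or vehicle was given for 24 h. The treatment labels give vehicle for the mutant and nCas9 cells, although their titles do not name it. All groups share the genotype labelled WT and come from the same cell line. No group combined rapamycin with nCas9 or the mutant, so the drug was measured only in cells that carry an editor. The seBE is the switchable editor of the study, so in seBE cells rapamycin may also change the state of the editor. Drug exposure and such switching cannot be told apart there. Replicates are labelled biological, but no label says that they were separate transductions, so a p-value here speaks of the spread among such libraries, which may be technical in part.

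Initiation begins when eIF4E, eIF4G and the helicase eIF4A, helped by eIF4B and eIF4H, engage a capped mRNA. The small ribosomal subunit arrives with eIF1, eIF1A, eIF3, eIF5 and the ternary complex of eIF2, GTP and initiator tRNA, which eIF2B recharges and the eIF2 kinases restrain. In elongation, eEF1A brings aminoacyl-tRNA to the ribosome, eEF1B recharges eEF1A, and eEF2 moves the ribosome along. Rapamycin inhibits mTORC1, which controls the translation of mRNAs that start with a C and a run of pyrimidines, and many ribosomal protein and elongation factor mRNAs belong to that class.

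The starts of the members that passed the test for rapamycin in intact BE cells are shown because those transcripts are the ones the drug comparison turns on. Each window is from RefSeq, build GRCm38.p6, and runs from 5 bases before to 25 bases after the annotated start, on the gene's strand. Capitals mark a C followed by at least 6 bases that are C or T.
Eef1a1: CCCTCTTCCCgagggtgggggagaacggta
Eef2: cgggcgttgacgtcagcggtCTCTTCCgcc
Eif4b: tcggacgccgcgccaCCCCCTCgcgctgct
Eif3f: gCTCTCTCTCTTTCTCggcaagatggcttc
Eef1b2: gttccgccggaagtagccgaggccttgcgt
Eif2s2: tggctttactgtacgcctgcgctttggcga

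The windows lie at chr9:78481700-78481729 on the minus strand for Eef1a1, chr10:81176626-81176655 on the plus strand for Eef2 and chr15:102073768-102073797 on the plus strand for Eif4b. They lie at chr7:108934410-108934439 on the plus strand for Eif3f, chr1:63176826-63176855 on the plus strand for Eef1b2 and chr2:154892882-154892911 on the minus strand for Eif2s2. The windows of Eef1a1, Eef2, Eif4b and Eif3f hold such a run and those of Eef1b2 and Eif2s2 do not. A run was counted anywhere in the window. Those of Eef1a1 and Eif3f begin before the annotated start, and those of Eef2 and Eif4b begin after it. Eif3e, the other of the 7 members that passed, had no entry. Some genes have several starts in the table. Counted by start, 15 of 66 member starts (22.7%) held the run, against 12.3% of all 32851 starts. Counted by gene, 14 of 51 members with an entry (27.5%) held it at any start, against 14.1% of all 27025 genes. An annotated start need not be the one used in these cells, so a window without the run says only that these letters are not in it. A window with the run does not show that the mRNA starts with it, which was not tested.

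Library totals ran from 13835979 to 23284932 counts, and the members took 2.38 to 2.88% of a library's counts. All 8 myeloid markers were present in every library, with the lowest value at 48.8 CPM (counts scaled to a common library size). The 15 markers of T cells, B cells, erythroid cells, fibroblasts and epithelium reached at most 1.03 CPM, and 7 of them were at 0 in every library. Replicates 2 and 3 of nCas9 stood apart from the other libraries on principal components. By a chi-square of counts per degree of freedom between replicates, mutant replicate 3 (41.3 and 42.0 from its replicates, which were 11.0 from each other) and replicate 3 of seBE under rapamycin (30.5 and 28.3, against 17.1) stood furthest from their groups. Levels below are CPM scaled by edgeR's TMM method, given for replicates 1, 2 and 3 in turn. A member was called where edgeR's quasi-likelihood test, with p adjusted by Benjamini and Hochberg over 14985 genes, fell under 0.05. In bulk RNA, fewer cells with a transcript and less transcript per cell cannot be told apart.

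Of the 65 members, 61 had enough counts to be tested, 50 initiation and 11 elongation members. Eef1a2, which encodes the eEF1A form of muscle and neurons, and Eif4e1b, which encodes an eIF4E form of oocytes, had no count in any library. Eif2s3y, the Y-linked copy of the eIF2 gamma subunit gene, had 4 counts in all, against 35695 for its X-linked copy Eif2s3x. The fourth untested member was Eef1akmt3, an eEF1A methyltransferase gene with a mean of 0.118 CPM.

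The elongation members were few and very abundant. Eef1a1 had a mean level of 7212 CPM over the 18 libraries, or 2893 CPM per kilobase of merged exon length, and held 62.99% of the summed level of the elongation members. Eef2 followed with 2192 CPM, or 659.5 CPM per kilobase. Together with Eef1g and Eef1b2, which encode subunits of the eEF1B exchange factor, these genes made up 96.2% of the elongation sum. The initiation sum was spread more evenly, with 28.2% in its 3 highest members, Eif4g2, Eif4a1 and Eif5a. Per kilobase, Eif5a led the initiation members at 493 CPM per kilobase, and Eif4a1 followed at 336 CPM per kilobase. The 13 eIF3 subunit genes other than Eif3j2 ranged from 26.1 CPM per kilobase for Eif3j1 to 217 CPM per kilobase for Eif3h. Reads from Eef1a1, which has many processed copies in the genome, could be shared with those copies, and the handling of such reads is not given in the sources used here.

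The summed elongation level relative to the summed initiation level was highest in intact BE cells under rapamycin. This ratio was 0.754 ± 0.0255 in seBE cells under rapamycin and 0.734 ± 0.0194 in seBE cells under vehicle. It was 0.925 ± 0.0167 in intact BE cells under rapamycin and 0.732 ± 0.0230 in intact BE cells under vehicle (SD, n = 3 each). The ratio was 0.770 ± 0.0464 in the catalytic mutant and 0.751 ± 0.0215 in nCas9 cells. The lowest library of intact BE under rapamycin, at 0.908, lay above every library of the other 5 groups, of which the highest was replicate 3 of the mutant at 0.823. Without that library the mutant's mean ratio was 0.743, and without replicate 3 the mean of seBE under rapamycin was 0.766. Without Eef1a1 the ratio was 0.324 in intact BE cells under rapamycin and 0.261 in intact BE cells under vehicle, and Eef2, which makes up 19.1% of the elongation sum over all libraries, was the largest remaining member.

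**Figure D1:**
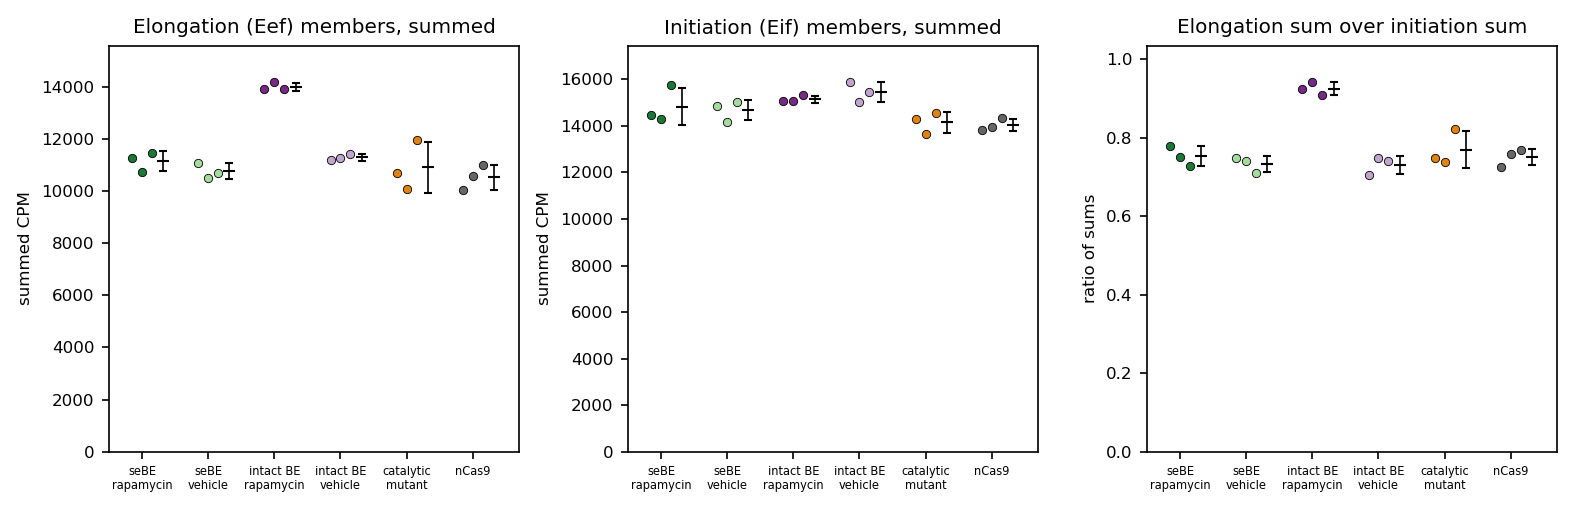
Summed CPM of the 13 elongation members (left), of the 52 initiation members (middle), and their ratio (right), for each of 18 libraries in 6 groups. Points are libraries, and the dash with bars is the mean ± SD of 3 libraries. The 3 libraries of intact BE under rapamycin have ratios between 0.908 and 0.941, above all others.

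Over the 6 groups, 33 of 61 tested members (54.1%) differed in 1 test of all group means, against 31.4% of all genes tested. All genes tested include many low ones, which are harder to call, and they were not matched to the members by level. Whether the members' shares here and below follow from their levels was not tested. The 33 comprised 27 of 50 initiation members and 6 of 11 elongation members. The ratio of the highest to the lowest group mean ran from 1.18 to 1.65 among the 33.

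Rapamycin in intact BE cells came with higher levels of Eef1a1, Eef2 and Eef1b2. Of 61 members, 6 rose and 1 fell (11.48%), against 3.32% of all genes tested, of which 1.98% were higher and 1.34% lower. The libraries of the treatments did not overlap in 26 members (42.6%), against 22.3% of all genes. The risers were Eef1a1, Eef2 and Eef1b2 among 11 tested elongation members, and Eif4b, Eif3e and Eif3f among 50 tested initiation members. A core list left out the eIF2 and eEF2 kinases, the methyltransferases, Eif4enif1, Eef1e1 and Eif1ad. Its risers were the same genes, 3 of 5 tested core elongation genes and 3 of 44 tested core initiation genes. The single member that fell was Eif2s2. The median log2 fold change was 0.02 over all 11 tested elongation members, 6 of them above 0, and -0.06 over the 50 tested initiation members, beside a median of -0.0036 over all genes tested. Over the core lists the median was 0.32 for the 5 tested elongation genes and -0.05 for the 44 tested initiation genes.

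Eef1a1 had 9112, 9214 and 8972 CPM in intact BE cells under rapamycin, against 7305, 7226 and 7279 CPM under vehicle. The groups did not overlap, and the log2 fold change was 0.32 (SE 0.067, edgeR adjusted p = 0.00305). Eef2 had 2779, 2794 and 2788 CPM under rapamycin and 2056, 2146 and 2251 CPM under vehicle. Its log2 fold change was 0.37 (SE 0.0736, edgeR adjusted p = 0.0018), and the rapamycin libraries had an SD of 7.11 CPM. Eef1b2, the guanine nucleotide exchange subunit of eEF1B, showed the largest rise of the 6 on the log2 scale. It had 831, 902 and 820.0 CPM under rapamycin and 619.9, 648 and 636 CPM under vehicle, a log2 fold change of 0.42 (SE 0.0654, edgeR adjusted p = 6.32e-05). The other eEF1B subunit genes, Eef1g and Eef1d, were not called. Eef1g had 843, 887 and 928 CPM under rapamycin and 793, 819 and 835 CPM under vehicle (log2 fold change 0.12, edgeR adjusted p = 0.404). Eef1d had 147, 168 and 165 CPM under rapamycin and 172, 174 and 192 CPM under vehicle, without overlap (log2 fold change -0.16, edgeR adjusted p = 0.289). Eef2k, the eEF2 kinase gene, had 76.2, 79.4 and 84.4 CPM under rapamycin and 91.6, 94.4 and 99.2 CPM under vehicle, also without overlap (log2 fold change -0.25, edgeR adjusted p = 0.0701).

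Eif4b, a cofactor of the eIF4A helicase, had 665, 700.4 and 706 CPM under rapamycin and 583, 566 and 575 CPM under vehicle in intact BE cells. Its log2 fold change was 0.27 (SE 0.0702, edgeR adjusted p = 0.0248), and leaving out any 1 of the 6 libraries moved the adjusted p to between 0.0537 and 0.134. Eif3e and Eif3f encode subunits of eIF3, the scaffold between the mRNA and the small ribosomal subunit. Eif3e had 463, 433 and 447 CPM under rapamycin against 374, 347 and 350.0 CPM under vehicle (log2 fold change 0.33, edgeR adjusted p = 0.00596). Eif3f had 353, 390 and 380 CPM under rapamycin against 277, 297 and 319 CPM under vehicle (log2 fold change 0.33, edgeR adjusted p = 0.00323). In all 3 genes the rapamycin libraries lay above the vehicle libraries. Eif2s2, the eIF2 beta subunit gene, ran the other way, with 283, 299.6 and 307 CPM under rapamycin and 393, 368 and 347 CPM under vehicle (log2 fold change -0.32, edgeR adjusted p = 0.0109). Among the risers, Eif3f and Eef1b2 had their lowest group mean in intact BE cells under vehicle (297.7 and 634.9 CPM). In nCas9 cells they averaged 353.6 and 791.6 CPM. The other risers had their lowest group mean in nCas9 or mutant cells.

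Leaving out rapamycin replicate 1 or vehicle replicate 2 left 4 of the 7 calls, where 1.38 and 1.42% of all genes were called. The calls of Eef1a1, Eef2, Eef1b2 and Eif3f remained with any 1 library left out. Eif3e was lost without rapamycin replicate 1 (edgeR adjusted p = 0.0555), vehicle replicate 2 (0.0591) or vehicle replicate 3 (0.0516). Eif2s2 was lost without rapamycin replicate 1 (0.0965), vehicle replicate 1 (0.0778) or vehicle replicate 2 (0.0501).

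**Figure D2:**
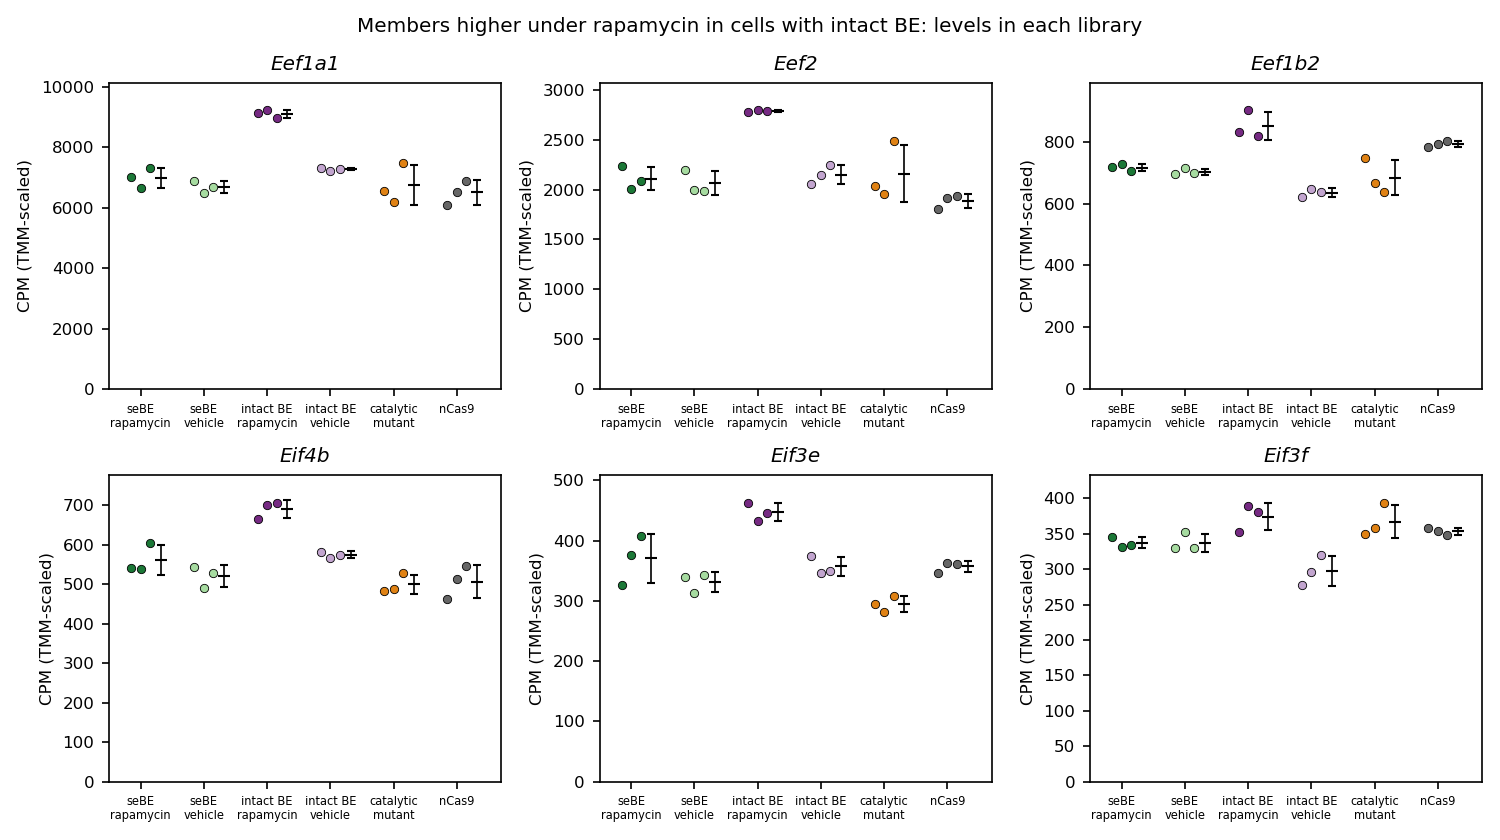
CPM of the 6 members called higher under rapamycin in intact BE cells, for each library of the 6 groups. Points are libraries, and the dash with bars is the mean ± SD of 3 libraries. In intact BE cells each gene's 3 rapamycin libraries lie above its 3 vehicle libraries, and in seBE cells the libraries of both treatments overlap.

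The same drug in seBE cells gave no call. Among 61 members, 0 passed edgeR's test and 0 passed DESeq2's, against 0% of all genes tested by edgeR, and 2 members had an unadjusted p under 0.05. Without rapamycin replicate 3 there was still no call. The libraries of the treatments did not overlap in 6 members (9.84%), against 8.06% of all genes. Eef1a1 had 7004, 6658 and 7320 CPM in seBE cells under rapamycin and 6866, 6483 and 6678 CPM under vehicle. Eef2 had 2239, 2010 and 2084 CPM under rapamycin and 2201, 1996 and 1989 CPM under vehicle. Eef1b2 had 717, 727 and 706 CPM under rapamycin and 695, 714 and 699.9 CPM under vehicle. In each of these genes the groups overlapped, with log2 fold changes of 0.07 (SE 0.067), 0.03 (SE 0.0735) and 0.03 (SE 0.0653).

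Whether the drug effect differed between the editors was tested directly as the effect in seBE cells minus the effect in intact BE cells. In seBE cells that effect takes in any switching of the editor by the drug. No member passed edgeR's test, where 0.187% of all genes did (0.0734% higher and 0.113% lower), and 8 members had an unadjusted p under 0.05. Eef1b2 came nearest, with a difference of -0.39 on the log2 scale (SE 0.0924, edgeR adjusted p = 0.0645). The difference was -0.34 (SE 0.104) for Eef2, -0.33 (SE 0.097) for Eif3f and -0.26 (SE 0.0947) for Eef1a1, with edgeR adjusted p of 0.277, 0.248 and 0.456. The Eef1b2 difference depended on the settings. It was called by DESeq2 (adjusted p = 0.000624) and by edgeR without a filter (adjusted p = 0.0391), with the compared libraries alone (0.0482), with a replicate block (0.0185), with the length trend removed (0.0287) and with both of these (0.00543). With a filter of 1 CPM in 3 libraries, or with any 1 library left out, no member was called. DESeq2 also called Eif3f (adjusted p = 0.0445).

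Set against intact BE cells under the same drug, seBE cells under rapamycin had lower levels of Eef1a1, Eef2 and Eef1b2. Of 61 members, 1 rose and 5 fell (9.84%), against 4.69% of all genes tested, of which 2.04% were higher and 2.66% lower. The libraries did not overlap in 15 members (24.6%), against 19.6% of all genes. Eef1a1 fell by 0.38 on the log2 scale (SE 0.0671, edgeR adjusted p = 0.0006) and Eef2 by 0.40 (SE 0.0736, edgeR adjusted p = 0.000931), with the libraries given above. Eif4b fell by 0.30, with 542, 538 and 606 CPM in seBE cells and 665, 700.4 and 706 CPM in intact BE cells. Eef1b2 fell by 0.25 and Eif3e by 0.27 (edgeR adjusted p = 0.0218 and 0.0227). Eef1d, a further exchange subunit of eEF1B, was the member that rose, with 211, 204 and 189 CPM in seBE cells and 147, 168 and 165 CPM in intact BE cells (log2 fold change 0.33, edgeR adjusted p = 0.0055). Without intact BE replicate 1, or without seBE replicate 2, 3 of the 6 calls were left (1.65 and 1.78% of all genes). Without seBE replicate 3 there were 9 calls, where 7.17% of all genes were called. Eef1b2 and Eif3e were each lost without any 1 of 4 libraries (edgeR adjusted p of 0.0544 to 0.115 and 0.066 to 0.166), Eef1d without intact BE replicate 1 (0.0743), and Eif4b without intact BE replicate 3 (0.0543) or seBE replicate 2 (0.0694). This comparison and the drug comparison share the intact BE rapamycin libraries.

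Without rapamycin, Eif4g1 and Eif2s3x were among the members that were higher in intact BE cells than in nCas9 cells. Of 61 members, 12 rose and 5 fell (27.9%), against 23% of all genes tested, a share near that background at the main setting. Among initiation members 11 rose and 2 fell, and among elongation members 1 rose and 3 fell. The background shares were 13.1% higher and 9.83% lower. The libraries did not overlap in 31 members (50.8%), against 38% of all genes. Without intact BE replicate 1 the calls numbered 11, with 9 higher and 2 lower, where 14.8% of all genes were called. Without nCas9 replicate 2 they numbered 12 (16.3% of all genes), and without nCas9 replicate 3 they numbered 19 (22.5%). Other settings lay further from the background. A replicate block called 26 members (24.9% of all genes), and DESeq2 called 23 (26.2% of genes with an adjusted p).

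Eif4g1, the scaffold of the cap-binding complex, had 892, 905 and 956 CPM in intact BE cells and 556, 506 and 634 CPM in nCas9 cells. The log2 fold change was 0.70 (SE 0.0778, edgeR adjusted p = 2.33e-07). Eif2s3x, the eIF2 gamma subunit gene, had 139, 124 and 129 CPM in intact BE cells and 79.6, 67.9 and 90.9 CPM in nCas9 cells (log2 fold change 0.72, edgeR adjusted p = 2.13e-05). Neither gene's groups overlapped. Eif3a, which encodes the largest eIF3 subunit, had 1012, 939 and 906 CPM in intact BE cells and 692, 719 and 724 CPM in nCas9 cells (log2 fold change 0.42, edgeR adjusted p = 0.00025). Another eIF3 subunit gene, Eif3c, had 561, 523 and 534 CPM in intact BE cells and 437, 418 and 471 CPM in nCas9 cells (log2 fold change 0.29, edgeR adjusted p = 0.00375).

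The eIF2 kinases phosphorylate eIF2 under stress and thereby lower initiation. Of their 4 genes, 2 rose and 0 fell in this comparison, where 13.1% of all genes were higher and 9.83% lower. Eif2ak1, the heme-regulated kinase, had 77.0, 69.8 and 74.7 CPM in intact BE cells and 56.6, 54.5 and 53.3 CPM in nCas9 cells (log2 fold change 0.43, edgeR adjusted p = 0.000365). Eif2ak3, the kinase PERK of the endoplasmic reticulum, had 36.6, 44.1 and 39.7 CPM in intact BE cells and 27.6, 26.4 and 33.2 CPM in nCas9 cells (log2 fold change 0.46, edgeR adjusted p = 0.0031). Eif2ak4, the amino acid sensor GCN2, had 51.8, 52.8 and 54.8 CPM in intact BE cells against 54.4, 49.5 and 57.6 CPM in nCas9 cells. The groups of Eif2ak4 overlapped (log2 fold change -0.02, edgeR adjusted p = 0.915).

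Eef2k, whose kinase phosphorylates eEF2 and slows elongation, was the elongation member that rose. It had 91.6, 94.4 and 99.2 CPM in intact BE cells and 72.5, 80.0 and 71.5 CPM in nCas9 cells (log2 fold change 0.35, edgeR adjusted p = 0.00112). Eef1b2 and Eef1d fell, together with the methyltransferase gene Eef2kmt. Eef1b2 had 619.9, 648 and 636 CPM in intact BE cells and 782, 791 and 801 CPM in nCas9 cells (log2 fold change -0.32, edgeR adjusted p = 0.000494). Eef1d had 172, 174 and 192 CPM in intact BE cells and 211, 215 and 215 CPM in nCas9 cells (log2 fold change -0.25, edgeR adjusted p = 0.0102). The Eef1d call was lost without intact BE replicate 1 (edgeR adjusted p = 0.0682) or replicate 2 (0.0628). Eif3f fell by 0.25 on the log2 scale (edgeR adjusted p = 0.00757) and was lost without intact BE replicate 1 (0.0857).

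Longer genes were relatively higher in intact BE libraries, which touches these values. The mean slope of log2 level on gene length was 0.0497 per doubling of length in intact BE cells under vehicle, -0.0435 in the catalytic mutant and -0.0588 in nCas9 cells. With this trend removed, 11 members rose and 5 fell in intact BE cells against nCas9, where 19.4% of all genes were called. The counts were 8 and 3 among initiation members and 3 and 2 among elongation members. Eif4e, the cap-binding protein gene, and Eif3j1, a loosely bound eIF3 subunit gene, were then no longer called (edgeR adjusted p = 0.205 and 0.181). Each was also lost without any 1 of 4 libraries, with adjusted p of 0.0536 to 0.162 for Eif4e and 0.0659 to 0.295 for Eif3j1.

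**Figure D3:**
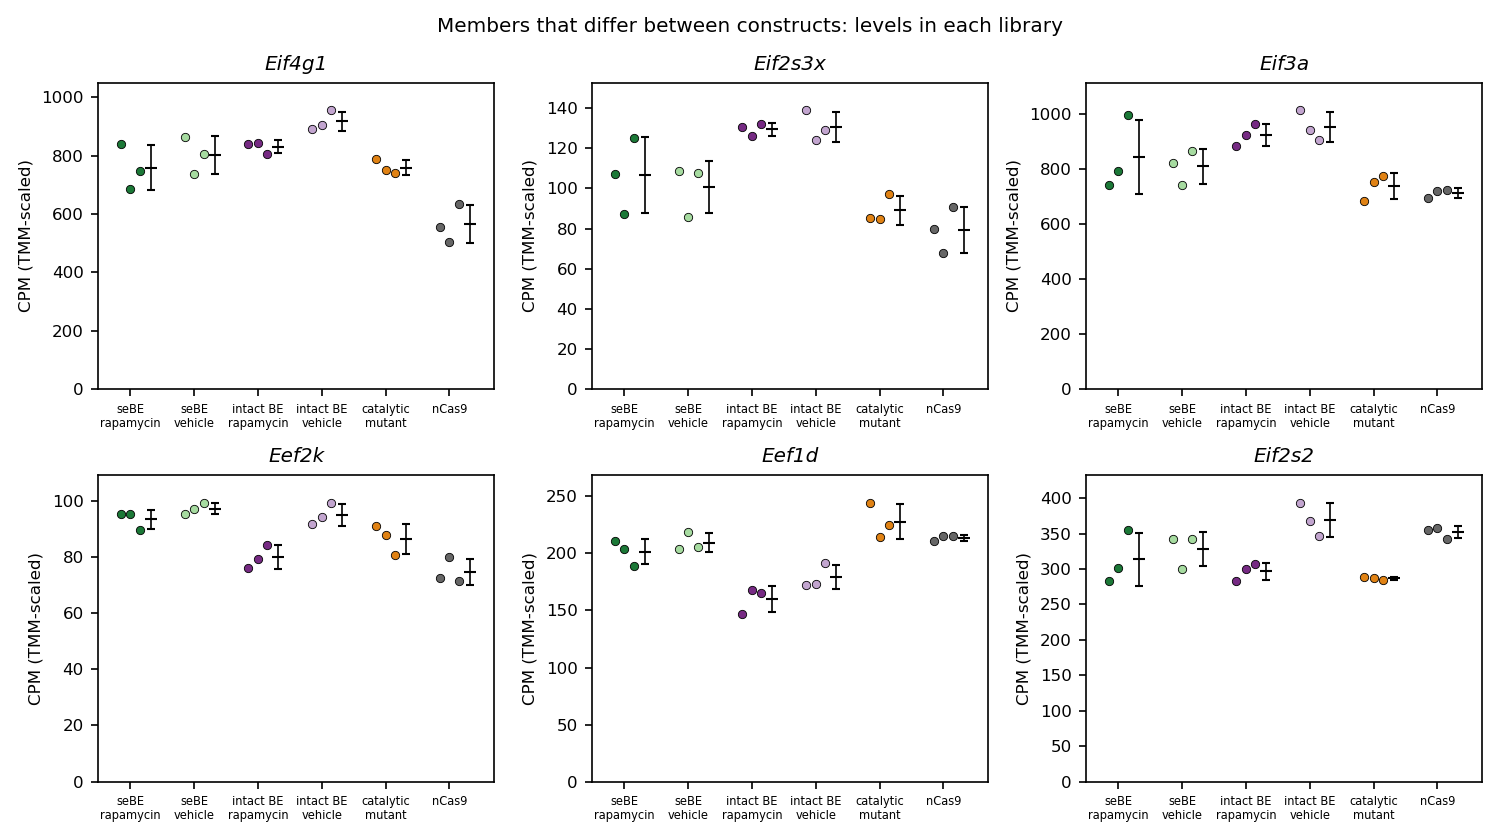
CPM of 6 members that were called between constructs, for each library of the 6 groups. Points are libraries, and the dash with bars is the mean ± SD of 3 libraries. The 3 nCas9 libraries of Eif4g1, at 506 to 634 CPM, lie below the other 15 libraries.

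The catalytic mutant, the same editor with an altered deaminase, was then set against nCas9. Of 61 members, 1 rose and 3 fell (6.56%), against 4.3% of all genes tested, of which 2.24% were higher and 2.06% lower. The libraries did not overlap in 20 members (32.8%), against 21.3% of all genes. Eif4g1 rose, with 788, 749.8 and 739.6 CPM in mutant cells and 556, 506 and 634 CPM in nCas9 cells (log2 fold change 0.43, edgeR adjusted p = 0.00203). Eif5b, which joins the ribosomal subunits, fell by 0.37 on the log2 scale (edgeR adjusted p = 0.0335). Eif2s2 fell by 0.29 and Eif3e by 0.28 (edgeR adjusted p = 0.0191 and 0.0217). Eif2s2 had 288, 288 and 285 CPM in mutant cells and 356, 358 and 342 CPM in nCas9 cells. Eif4g1 was the only call left without nCas9 replicate 2, where 0.784% of all genes were called. Without mutant replicate 1, 2 calls, 1 in each direction, were left (2.43% of all genes). Without mutant replicate 3 there were 3 calls (2.6%). Eif5b and Eif2s2 were each lost without any 1 of 5 libraries, and Eif3e without any 1 of 4, with the highest edgeR adjusted p at 0.237, 0.107 and 0.113, each without nCas9 replicate 2. Other settings gave more calls. DESeq2 called 14 members (9.72% of all genes with an adjusted p), edgeR without a filter called 9 (3.16%), and edgeR with the length trend removed called 8 (4.72%).

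Between intact BE and its catalytic mutant, 17 members rose and 8 fell (41.0%), against 21% of all genes tested, of which 11.6% were higher and 9.33% lower. The libraries did not overlap in 38 members (62.3%), against 37.8% of all genes. All 17 that rose were initiation members, and the 8 that fell were 6 initiation and 2 elongation members. This split depended on the length trend. With the trend removed, 13 initiation members rose and 4 fell, and 2 elongation members rose and 1 fell. At that setting 18.2% of all genes were called. The median log2 fold change of the elongation members was -0.10 before the removal and 0.03 after it. Without the removal, all 3 tested eIF2 subunit genes rose. Eif2s1, the alpha subunit gene, had 327, 304 and 309.5 CPM in intact BE cells and 269, 243 and 256 CPM in mutant cells (log2 fold change 0.29, edgeR adjusted p = 0.00388). Eif2s2 had 393, 368 and 347 CPM in intact BE cells and 288, 288 and 285 CPM in mutant cells (log2 fold change 0.36, edgeR adjusted p = 0.000714). Eif2s3x had 139, 124 and 129 CPM in intact BE cells and 85.5, 84.6 and 97.3 CPM in mutant cells (log2 fold change 0.55, edgeR adjusted p = 0.000553). None of these groups overlapped.

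Further risers over the mutant were Eif3a (log2 fold change 0.37), Eif1a (0.37), which encodes a scanning factor, Eif3j1 (0.35) and Eif4e (0.31). Eif4e had 255, 237 and 235 CPM in intact BE cells and 206, 191 and 187 CPM in mutant cells (edgeR adjusted p = 0.00256). Eif4g1 rose by 0.27 on the log2 scale (edgeR adjusted p = 0.00975). With the length trend removed its adjusted p was 0.0943, and without intact BE replicate 3 it was 0.051. Eif5, the GTPase-activating factor gene, rose by 0.24 (edgeR adjusted p = 0.0174) and was not called with the length trend removed (0.101). Eif5b rose by 0.30 (edgeR adjusted p = 0.0392), and this was 0.317 with the trend removed. Without any 1 of 5 libraries Eif5b was also lost (0.0643 to 0.2), as was Eif5 without mutant replicate 1 (0.0872) or intact BE replicate 1 (0.207).

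The elongation members that fell against the mutant were Eef1d and Eef2kmt. Eef2kmt, which encodes the eEF2 lysine methyltransferase, averaged 18.3 ± 1.68 CPM in intact BE cells and 23.5 ± 2.19 CPM in mutant cells (SD, n = 3 each, log2 fold change -0.36, edgeR adjusted p = 0.0463). Eef1d had the lowest adjusted p of those that fell, with 172, 174 and 192 CPM in intact BE cells and 244, 214 and 225 CPM in mutant cells (log2 fold change -0.35, edgeR adjusted p = 0.000891). Eif3f fell by 0.30 (edgeR adjusted p = 0.00169) and Eif3g, another eIF3 subunit gene, by 0.29 (edgeR adjusted p = 0.00446). Eif4g3, the second eIF4G scaffold gene, went against Eif4g1. It had 343, 341 and 366 CPM in intact BE cells and 459.9, 490.1 and 369 CPM in mutant cells (log2 fold change -0.33, edgeR adjusted p = 0.0037), and this call was lost without mutant replicate 2 (0.0556). Without intact BE replicate 1 the comparison called 15 members (10.6% of all genes), and without mutant replicate 1 it called 16 (14.6%). Without mutant replicate 3 it called 24 (19.1%).

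In seBE cells under vehicle, 2 members rose against nCas9 and 0 fell (3.28%), against 4.56% of all genes tested, of which 2.64% were higher and 1.93% lower. The libraries did not overlap in 18 members (29.5%), against 22.5% of all genes. Eif4g1 had 865, 738 and 805 CPM in seBE cells and 556, 506 and 634 CPM in nCas9 cells (log2 fold change 0.51, edgeR adjusted p = 0.000167). Eef2k had 95.3, 97.2 and 99.3 CPM in seBE cells and 72.5, 80.0 and 71.5 CPM in nCas9 cells (log2 fold change 0.38, edgeR adjusted p = 0.00372). Neither gene's groups overlapped. Without nCas9 replicate 3 the calls numbered 5, all higher, where 5.86% of all genes were called. Eif4g1 was called in each of the 3 comparisons with nCas9, which share the nCas9 libraries.

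Set against intact BE cells under vehicle, seBE cells under vehicle had 1 member that rose and 1 that fell (3.28%), against 3.99% of all genes tested, of which 1.68% were higher and 2.32% lower. The libraries did not overlap in 24 members (39.3%), against 29.4% of all genes. Eif3g had 149, 166 and 151 CPM in seBE cells and 122, 128 and 141 CPM in intact BE cells (log2 fold change 0.25, edgeR adjusted p = 0.0436). Eif2s3x had 109, 85.6 and 108 CPM in seBE cells and 139, 124 and 129 CPM in intact BE cells (log2 fold change -0.38, edgeR adjusted p = 0.0424). Both sets of libraries stood apart, but each call was lost on leaving out any 1 of 5 of the 6 libraries, with edgeR adjusted p of 0.0546 to 0.36 for Eif2s3x and 0.0591 to 0.374 for Eif3g. With the length trend removed neither was called, and Eif4g3 and Eef1d were called higher in seBE cells in their place.

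**Figure D4:**
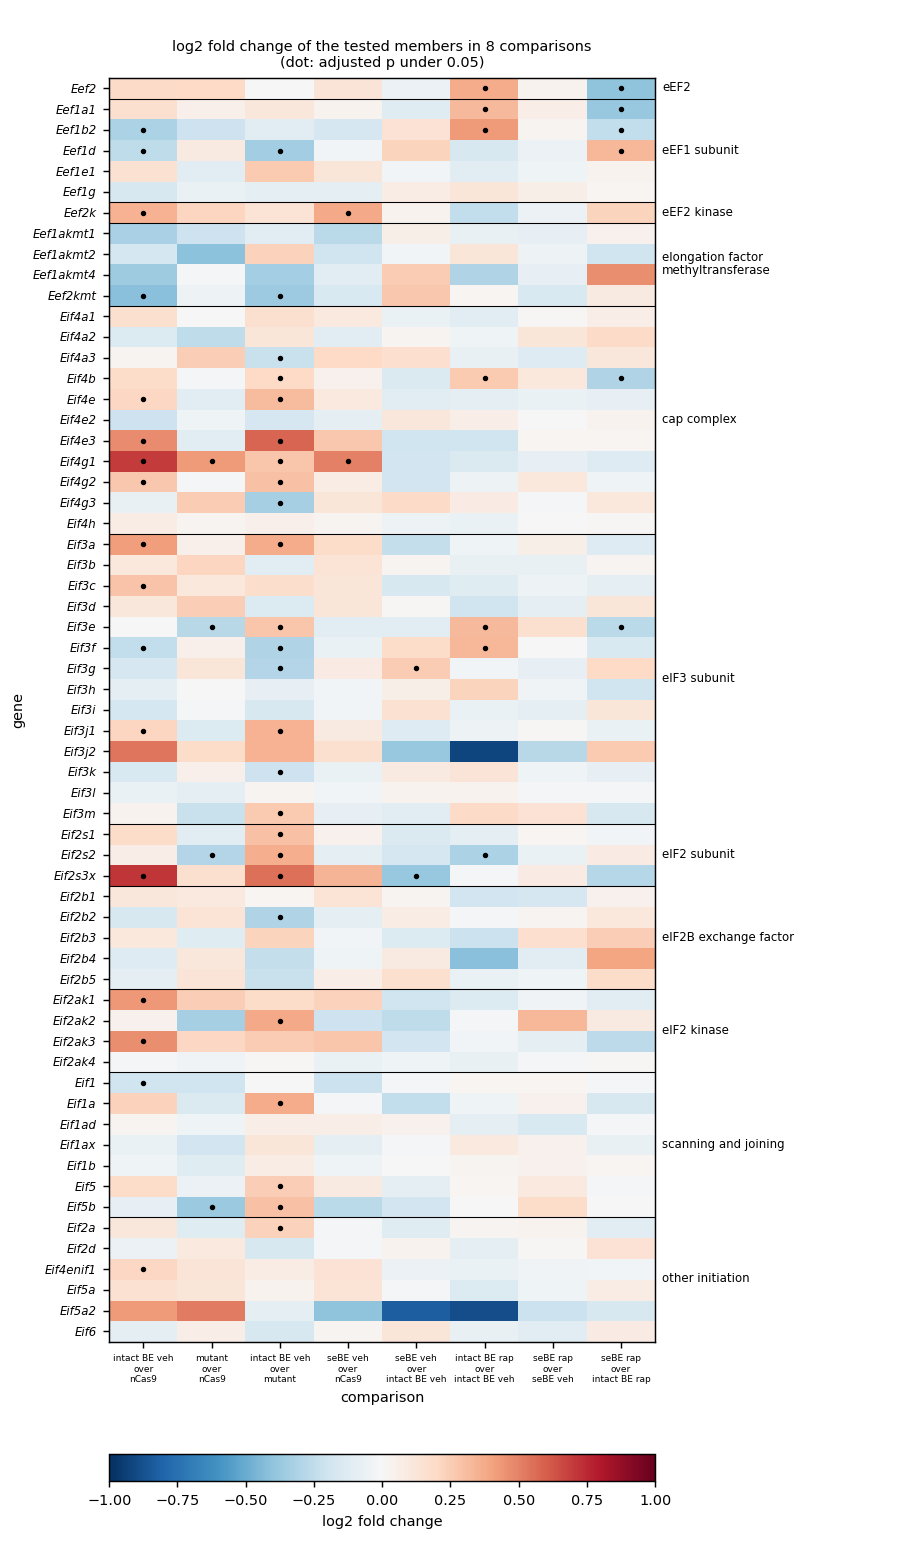
Log2 fold change of the 61 tested members (rows, grouped by role) in 8 comparisons (columns, first group over second), with red for higher and blue for lower in the first group. A dot marks an adjusted p under 0.05. The column of seBE under rapamycin over seBE under vehicle has no dot. Eif3j2 and Eif5a2, with means near 0.9 CPM, have the deepest colours and no dot.

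Several abundant members were called in none of these comparisons. Eif4a1, the eIF4A helicase gene, had log2 fold changes of 0.16 in intact BE cells over nCas9 (edgeR adjusted p = 0.0816) and -0.12 for rapamycin in intact BE cells (0.475). Eif5a, whose hypusine-bearing protein eases elongation through stalls, had 0.16 and -0.14 in the same comparisons (edgeR adjusted p = 0.0698 and 0.283). Eif6, which keeps the large ribosomal subunit from joining early, had -0.09 and -0.07 (edgeR adjusted p = 0.419 and 0.764). In all, 34 of the 61 tested members were called in at least 1 of the 9 comparisons, and 27 in none.

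Other genes of the pathway were read in the same fit. Of 83 cytosolic ribosomal protein genes tested, 27 rose and 0 fell under rapamycin in intact BE cells (median log2 fold change 0.22), where 1.98% of all genes were higher and 1.34% lower. Under rapamycin in seBE cells their median was -0.02 with no call. In intact BE cells over nCas9, 67 of them fell and 0 rose (median -0.39), against 9.83% of all genes lower. With the length trend removed 52 fell, where 19.4% of all genes were called. Eef1b2 and Eef1d fell in that comparison too, while Eef1a1 (log2 fold change 0.16) and Eef2 (0.19) were not called. Over the same nCas9 libraries, 24 fell and 0 rose in the catalytic mutant (median -0.15, with 2.06% of all genes lower). In seBE cells under vehicle over nCas9, 18 fell and 0 rose (median -0.15, with 1.93% lower). Of 20 regulators of initiation, 9 rose and 2 fell in intact BE cells over nCas9, where 13.1% of all genes were higher and 9.83% lower. The 3 lowest adjusted p were those of Ddx3x, a helicase gene (log2 fold change 0.50), Larp1, whose protein binds pyrimidine-run mRNAs (0.39), and Bzw2, an eIF5 mimic gene (0.42). The 2 that fell were Eif4ebp1, whose protein holds back eIF4E (-0.32), and Mcts1 (-0.26). Under rapamycin in intact BE cells Bzw2 fell by 0.46 and Paip2, an inhibitor of the poly(A)-binding protein, rose by 0.40.

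Of 8 termination, recycling and rescue genes tested, 4 rose and 1 fell in intact BE cells over nCas9, against the same 13.1% and 9.83% of all genes. Among those that rose were Gspt1, the release factor eRF3 gene (log2 fold change 0.40), and Ltn1, a ubiquitin ligase gene of stalled ribosomes (0.43), and the gene that fell was Gtpbp2, of ribosome rescue (-0.42). None of them was called for rapamycin in intact BE cells. Of 11 genes for elongation helpers and modifying enzymes, 0 were called in either comparison. Of 9 mitochondrial factor genes, 1 rose and 1 fell in intact BE cells over nCas9, near the 23% of all genes called there, and none was called for rapamycin.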

How the data were processed

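Polyadenylated RNA of 18 libraries was sequenced by the submitters with a directional kit, per the labels. The authors deposited raw read counts per gene. Per the submitters' processing notes, the tools were fastp 1.0.1, STAR 2.7.1a, SAMtools 1.9, featureCounts of Subread 2.0.3 and DESeq2, with genome GRCm39. The annotation release, strand setting and multi-mapping rule were not given in the sources used here, so reads of a gene and of an overlapping antisense gene cannot be separated. Library totals of 13835979 to 23284932 counts limit the precision of low genes.

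Of 56748 Ensembl IDs, 52073 were given a symbol by an ID-to-name table. Genes were filtered with filterByExpr, which left 14985. All libraries entered a fit of 6 group means in edgeR 4.0.16 (R 4.3.3) with TMM scaling and quasi-likelihood tests, and p-values were adjusted over all tested genes. Named members are a list of 16 genes, up to 8 called members per comparison by adjusted p, and the 6 with the lowest p over 6 groups. Others were named after their values were seen. The members and lists were chosen with earlier results of these data known. Gene length is the merged exon length in GENCODE M21 (GRCm38), since the count table held no length, and 97.4% of tested genes had one. Alternatives were DESeq2 1.42.0, other filters, the compared libraries alone, a replicate block, removal of the length trend, and each library left out. The fit was tested on simulated data with known changes.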

Additional observations from a re-analysis of the deposited data

How the results depend on the processing

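Of 637 checks of 49 named member and comparison pairs, 546 kept their call, 91 lost it and 0 reversed; 72 of the losses came from a library left out. The cause was not tested for any change below.

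The 24 correlations of same-numbered libraries ran from -0.0316 to 0.0594, and those of different-numbered libraries from -0.09405 to 0.0629. The fit of 6 group means held no replicate term, and these small values cannot show that same-numbered libraries shared no effect. In what follows the share of all genes called under the same setting stands in brackets. With a replicate block, 26 members were called in intact BE over nCas9 (24.9%), 12 in the mutant over nCas9 (6.57%), 4 in seBE over nCas9 (7.27%), 4 in seBE over intact BE under vehicle (7.83%) and Eef1b2 alone, 1 member, for the difference in drug effect (0.434%). With the replicate block and the length trend removed, the counts were 12 in the mutant over nCas9 (6.81%), 5 in seBE over nCas9 (6.17%), 10 in seBE over intact BE under rapamycin (6.14%) and 3, Eef1b2, Eif3f and Eef2, for the difference in drug effect (0.514%). With the length trend removed alone, 8 were called in the mutant over nCas9 (4.72%) and 1, Eef1b2, for the difference (0.22%).

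DESeq2 called 14 in the mutant over nCas9 (9.72% of genes with an adjusted p), 5 in seBE over nCas9 (9.61%), 4 in seBE over intact BE under vehicle (13.4%) and 2 for the difference (0.636%). Without a filter the counts were 9 in the mutant over nCas9 (3.16%), 4 in seBE over nCas9 (3.36%) and 1, Eef1b2, for the difference (0.257%). With the compared libraries alone they were 7 in seBE over intact BE under vehicle (14%), 11 for rapamycin in intact BE (6.58%) and 1, Eef1b2, for the difference (0.215%).

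Leaving out each library in turn gave 11 to 19 calls in intact BE over nCas9 (14.8 to 22.5%). The mutant over nCas9 gave 1 to 4 (0.784 to 4.84%). Intact BE over the mutant gave 15 to 24 (10.6 to 19.1%). In seBE over nCas9 there were 2 to 5 (0.778 to 5.86%), with the 5 found without nCas9 replicate 3. In seBE over intact BE there were 0 to 1 under vehicle (0.332 to 3.32%) and 3 to 9 under rapamycin (1.65 to 7.17%). Rapamycin gave 4 to 6 calls in intact BE (1.38 to 2.56%) and 0 to 0 in seBE (0 to 0.00641%). The difference gave 0 to 0 (0.0708 to 0.359%). Over the 6 groups 26 to 36 members were called, with no share of all genes given here.

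The ratio of elongation to initiation sums without Eef1a1 was 0.282 in seBE under rapamycin, 0.279 in seBE under vehicle, 0.324 in intact BE under rapamycin, 0.261 in intact BE under vehicle, 0.295 in the mutant and 0.288 in nCas9. Per kilobase it was 1.17, 1.13, 1.46, 1.16, 1.16 and 1.15 in the same order of groups. Leaving out a library gave 0.741 to 0.766, 0.726 to 0.745, 0.917 to 0.933, 0.723 to 0.745, 0.743 to 0.786 and 0.743 to 0.763 in that order.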
